A study of Mus musculus with 6 samples.

Results

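The 10 genes described here encode chaperones and transcription factors of the heat shock response and the unfolded protein response: Hspa1a, Hspa1b, Hspa8, Dnajb1 and Hsp90aa1 of the cytosol, Hspa5 and Hsp90b1 of the endoplasmic reticulum, and the transcription factors Ddit3, Atf4 and Xbp1. They were taken by symbol from a fixed list, and all 10 were found among the 55335 gene identifiers of the count files. The libraries were RNA-seq of striatum, where the basal ganglia receive their input, from C57 mice, with 3 control libraries labelled wild type and 3 libraries labelled as overexpressing PDE5A, an enzyme that breaks down cyclic GMP. How overexpression was brought about, what the controls received, and the age of the mice were not given in the sources read. The labels list each library as a separate sample but do not say that the samples came from separate animals, so p-values measure the spread between these libraries, which may be technical.

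When proteins misfold in the cytosol, the heat shock factor HSF1 is released from chaperones and drives transcription of inducible chaperones such as those encoded by Hspa1a, Hspa1b and Dnajb1. Misfolding in the endoplasmic reticulum is sensed instead by IRE1, PERK and ATF6, which act through spliced XBP1, through ATF4 and its target CHOP (the product of Ddit3), and through cleaved ATF6, and raise endoplasmic reticulum chaperones such as those encoded by Hspa5 and Hsp90b1. Neurons express constitutive chaperones, among them the products of Hspa8 and Hsp90aa1, at high levels without stress. The comparison asked whether either arm differed between control striatum and striatum labelled as overexpressing PDE5A.

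For 9 of the 10 genes, in both arms, the libraries of the groups overlapped in level, and none of the 10 genes passed the test. Library totals ran from 33013698 to 42288789 counts. Pde5a had 3.72, 4.14 and 6.09 CPM (counts scaled to a common library size with TMM factors) in control libraries 1 to 3 and 760, 700 and 592 CPM in overexpression libraries 1 to 3. Pde5a was the only gene of 19809 tested that passed an adjusted p of 0.05 in the quasi-likelihood test of edgeR (Benjamini-Hochberg over all genes), which is 0.00505% of the genes. Of the 10 chaperone and stress factor genes, 0 passed, and 0 had an unadjusted p under 0.05 in edgeR, in the DESeq2 Wald test or in limma-voom. Their smallest unadjusted p was 0.109, for Xbp1, and their adjusted p values were all 1.0 in edgeR. The fold change of overexpression over control was above 1 for 6 of them and below 1 for 4, with a median log2 fold change of 0.02 beside 0.00 for all genes tested. Markers of medium spiny neurons, the main neurons of this region, were abundant in every library, with Ppp1r1b, which encodes DARPP-32, at 991 to 1907 CPM.

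Levels are compared between genes as CPM per kilobase of annotated exon, averaged over the 6 libraries. Hspa8, the constitutive cytosolic HSP70, was the most abundant at 217 CPM per kb, followed by Hsp90aa1, a cytosolic HSP90, at 186. The endoplasmic reticulum chaperones came next, with the HSP90 paralogue Hsp90b1 (GRP94) at 76.6 CPM per kb and the HSP70 paralogue Hspa5 (BiP) at 40.9. Atf4 had 29.5 CPM per kb, Xbp1 18.8, Ddit3 12.4 and Dnajb1, an HSP40 co-chaperone that activates HSP70, 12. The inducible HSP70 genes were far below these, with Hspa1a at 1.69 and Hspa1b at 1.47 CPM per kb, and Dnajb1 exceeded Hspa1a 7.11-fold. These genes are near-identical copies, and if reads that match both were left uncounted, their levels are understated. Of the 9 pairs of neighbours in this order, 3 had overlapping ranges over the libraries. Hspa8 exceeded Hsp90aa1 and Hspa1a exceeded Hspa1b in 6 of 6 libraries each, while Ddit3 exceeded Dnajb1 in 4 of 6.

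**Figure D1:**
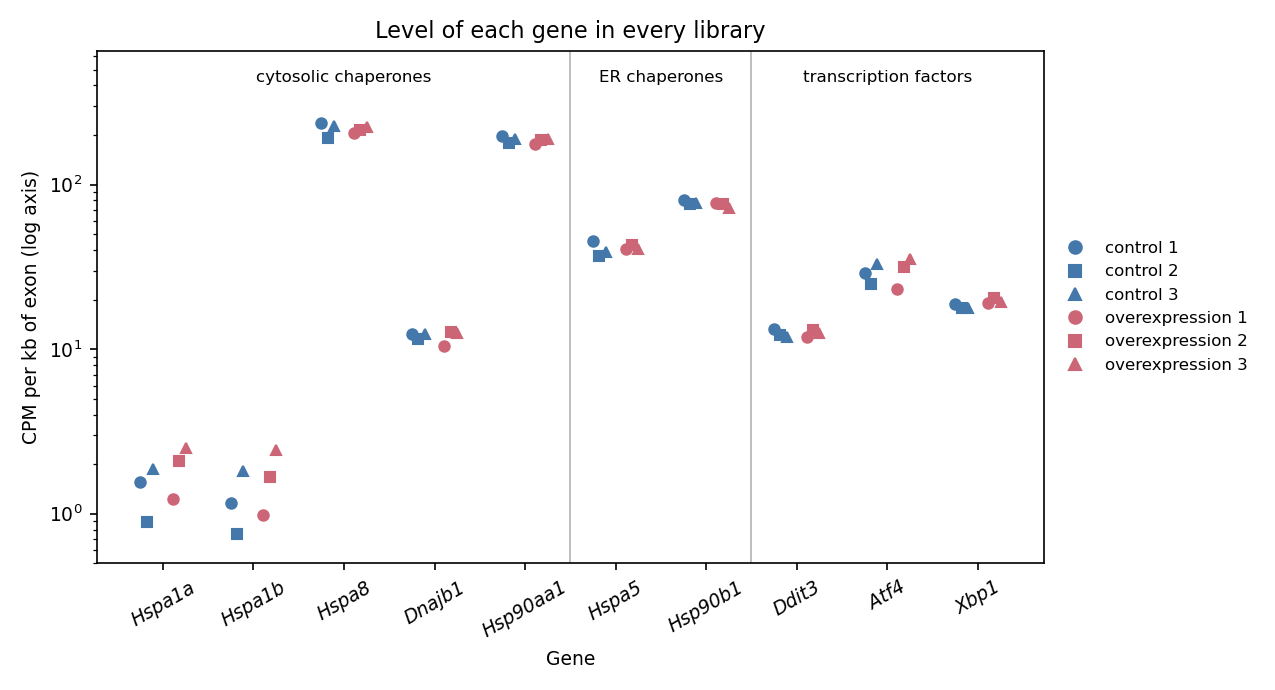
Level of each of the 10 genes in CPM per kilobase of exon on a log axis, with 1 point per library (blue, control; red, overexpression; the marker shape gives the replicate). Hspa1a and Hspa1b lie lowest and spread most, while the other 8 genes hold narrower bands in which the libraries of both groups mix, apart from Xbp1, whose overexpression libraries all lie above its control libraries.

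The inducible HSP70 genes Hspa1a (mm10 chromosome 17, 34969190 to 34972156, minus strand) and Hspa1b (chromosome 17, 34956436 to 34959238, minus strand) are neighbouring single-exon copies that encode nearly the same protein. Their coding sequences, 1926 and 1929 bases in GENCODE M21, were 99.4% identical when aligned, with 8 substitutions, 3 gap bases and an identical run of 638 bases. Reads from the shared stretches cannot be placed in 1 copy, so the split of counts between them is uncertain. Whether such reads were counted at all was not stated, so the levels of both copies may be understated. The protein-coding gene Gm20481 overlaps exons of Hspa1a on the other strand. The strand setting of the counting was not stated, so the Hspa1a count may also hold reads of Gm20481. The 250 bases before the start sites of Hspa1a and Hspa1b, from RefSeq on GRCm38.p6, are shown because these copies varied together across libraries. They were searched for the heat shock element, which HSF1 binds, in forms of 2 units and of 3 units. In both copies the form of 2 units was matched in 1 order only. Its other order and both forms of 3 units were not matched in either copy. The sequence that matches GAANNTTC, a pair of inverted heat shock element units bound by HSF1, is in capitals.
Hspa1a, chr17:34972157-34972406, minus strand: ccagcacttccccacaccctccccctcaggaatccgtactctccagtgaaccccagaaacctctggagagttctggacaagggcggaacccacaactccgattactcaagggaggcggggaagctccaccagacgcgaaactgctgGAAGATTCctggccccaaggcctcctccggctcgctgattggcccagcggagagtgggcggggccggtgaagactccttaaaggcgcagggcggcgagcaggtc
Hspa1b, chr17:34959239-34959488, minus strand: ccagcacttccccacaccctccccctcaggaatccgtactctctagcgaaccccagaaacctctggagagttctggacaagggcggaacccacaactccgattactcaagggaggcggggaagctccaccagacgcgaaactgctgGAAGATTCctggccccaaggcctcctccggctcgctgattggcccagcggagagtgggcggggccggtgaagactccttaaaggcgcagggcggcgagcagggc
The windows differed at 3 of 250 positions, C44T, T47C and T249G, written with the Hspa1a base first, the position counted from 1 at the 5′ end of the window, and the Hspa1b base last. The GAANNTTC match, searched on both strands, began 104 bases before the start site in both, and 6.69% of the 32851 RefSeq windows of this length held such a match.

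Hspa1a had 4.63, 2.66 and 5.54 CPM in control libraries 1 to 3 and 3.62, 6.20 and 7.39 CPM in overexpression libraries 1 to 3. Control library 2 was lowest and overexpression library 3 highest, and the groups overlapped. Its means were 4.28 ± 1.47 CPM in the controls and 5.74 ± 1.93 in overexpression (SD, n = 3), a log2 fold change of 0.42 (SE 0.34, unadjusted p = 0.256 in edgeR's quasi-likelihood test). Hspa1b followed the same course, at 3.24, 2.10 and 5.12 CPM in the controls and 2.74, 4.66 and 6.83 CPM in overexpression. Its log2 fold change was 0.44 (SE 0.42, unadjusted p = 0.327 in edgeR). The 95% intervals of the fold ran from 0.767 to 2.34 for Hspa1a and from 0.682 to 2.71 for Hspa1b, and both include 1. Single libraries moved these values: the log2 fold change of Hspa1a was 0.17 without control library 2, 0.19 without overexpression library 3, 0.66 without control library 3 and 0.67 without overexpression library 1. For Hspa1b it was 0.18, 0.08, 0.83 and 0.72 in the same order. Counting error was smaller than the spread between libraries: the 109 reads of Hspa1a in control library 2 allow 2.18 to 3.21 CPM, and the 277 in overexpression library 3 allow 6.55 to 8.32 CPM (exact Poisson 95% intervals, which cover counting error only). Summing the copies into 1 feature removes the uncertain split but does not restore reads left uncounted. The sum had 7.87, 4.75 and 10.7 CPM in the controls and 6.36, 10.9 and 14.2 CPM in overexpression. The log2 fold change of that sum was 0.43 (SE 0.38, adjusted p = 1.0 in edgeR).

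Within groups, Hspa1a and Hspa1b varied more than most genes. The within-group SD of log2 CPM was 0.54 for Hspa1a and 0.64 for Hspa1b, against a median of 0.18 over all genes tested. The highest library exceeded the lowest 2.78-fold for Hspa1a and 3.26-fold for Hspa1b. The other chaperones held far narrower ranges, between 1.12-fold for Hsp90aa1 and Hsp90b1 and 1.24-fold for Hspa8. Outside the 10 genes, the profiles most like that of Hspa1a over the 6 libraries were those of the gene model Gm32200, of Serpini1, which encodes the neuronal serine protease inhibitor neuroserpin, and of Camk1, a calcium/calmodulin-dependent kinase. Likeness was the root mean square difference between centred log2 CPM profiles among 16033 genes with at least 1 CPM, and it was 0.08, 0.08 and 0.11 for these, against 0.15 between Hspa1a and Hspa1b themselves. Serpini1 had 137, 75.0 and 168 CPM in the controls and 95.3, 160 and 209 CPM in overexpression. Since Serpini1 was picked for this likeness, its lowest library, control library 2, and highest, overexpression library 3, follow from the choice.

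The level of Hspa1a and Hspa1b moved with markers of cortical glutamatergic neurons, a cell type of tissue next to the striatum. All 10 of the 10 cortical markers were measured and none was at 0 in any library. Their summed level was 620, 198 and 1054 CPM in control libraries 1 to 3 and 400, 720 and 1354 CPM in overexpression libraries 1 to 3. From lowest to highest, the libraries stood in the same order for this sum as for Hspa1b. On the mean log2 CPM of the same markers the order differed, with overexpression library 2 below control library 1. The 3 libraries with the lowest sums were also the lowest for Hspa1a. Slc17a7, the vesicular glutamate transporter VGLUT1, ranged from 64.3 CPM in control library 2 to 817 CPM in overexpression library 3, and Ppp1r1b was lowest in that last library, at 991 CPM. With the cortical marker level as a covariate, the log2 fold change was 0.19 for Hspa1a and 0.14 for Hspa1b (adjusted p = 1.0 for both in edgeR). With the choroid plexus marker level in its place, it was 0.53 for Hspa1a and 0.67 for Hspa1b. In bulk tissue, fewer cells of a type and less RNA per cell cannot be told apart. The immediate early genes, which neuronal activity induces, were also lowest in control library 2 and overexpression library 1, at a mean of 3.74 and 3.79 log2 CPM. Their mean was 4.14 and 4.05 log2 CPM in control libraries 1 and 3 and 5.02 and 4.29 in overexpression libraries 2 and 3. The part of tissue composition and of neuronal activity in the spread of Hspa1a and Hspa1b was not tested further.

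**Figure D2:**
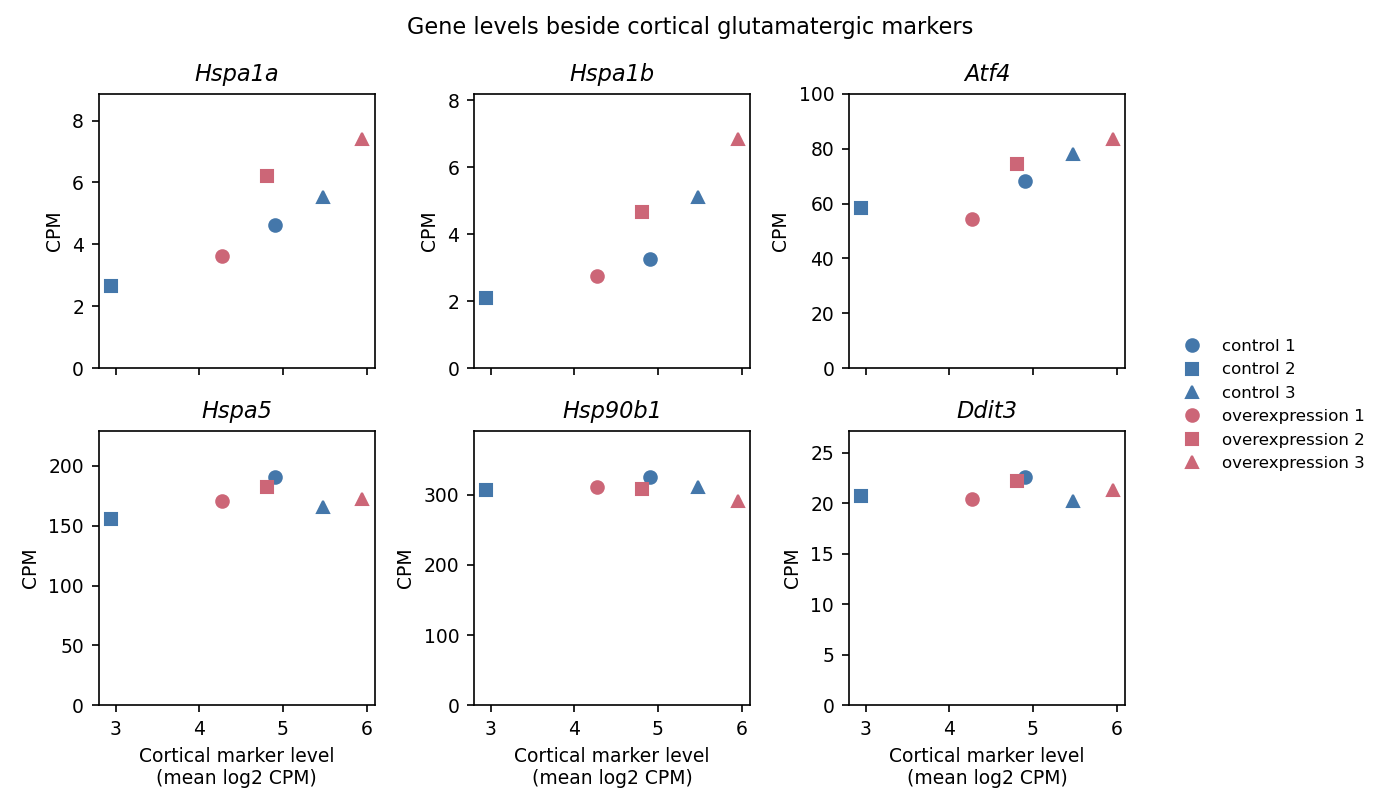
CPM of 6 of the genes, each on an axis from 0, against the mean log2 CPM of 10 cortical glutamatergic markers, with 1 point per library. Hspa1a, Hspa1b and Atf4 are higher in libraries with more cortical marker RNA in both groups, from 2.66 to 7.39 CPM for Hspa1a, while Hspa5, Hsp90b1 and Ddit3 lie nearly level. The cytosolic genes Hspa8, Dnajb1 and Hsp90aa1, and Xbp1, are not shown.

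The constitutive and co-chaperone genes of the cytosol did not separate the groups. Hspa8 (chromosome 9, 40800984 to 40810087, plus strand) had 1016, 823 and 974 CPM in the controls and 883, 929 and 966 CPM in overexpression, and the control range enclosed the whole overexpression range. Its fold was 0.987, with a 95% interval from 0.843 to 1.155. The small nucleolar RNA genes Snord14c, Snord14d and Snord14e overlap its annotated exons on the same strand, so its count may hold or lack some of their reads. Dnajb1 (chromosome 8, 83608193 to 83612653, plus strand), which responds to HSF1 like the inducible HSP70 genes, had 39.7, 36.8 and 39.7 CPM in the controls and 33.6, 40.8 and 40.1 CPM in overexpression. Overexpression library 1 was its lowest and overexpression library 2 its highest, and the fold was 0.986 (95% interval 0.852 to 1.14). None of the heat shock element forms searched was matched in the RefSeq windows of Dnajb1. Hsp90aa1 (chromosome 12, 110690605 to 110702728, minus strand) had 777, 705 and 744 CPM in the controls and 694, 733 and 742 CPM in overexpression, with overlapping groups and a fold of 0.974 (95% interval 0.864 to 1.10).

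The endoplasmic reticulum chaperones did not separate the groups either. Their promoters are shown because they carry the sequence through which ATF6 and XBP1 are known to act, the endoplasmic reticulum stress element, in which CCAAT and CCACG stand 9 bases apart. The 250 bases before the start site are given from RefSeq on GRCm38.p6, with every CCAAT box and stress element on either strand in capitals.
Hspa5, chr2:34771840-34772089, plus strand: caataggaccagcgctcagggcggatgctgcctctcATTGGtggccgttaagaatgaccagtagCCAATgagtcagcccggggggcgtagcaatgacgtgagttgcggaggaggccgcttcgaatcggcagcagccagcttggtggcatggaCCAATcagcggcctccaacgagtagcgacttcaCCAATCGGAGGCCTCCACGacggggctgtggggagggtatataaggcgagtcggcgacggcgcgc
Hsp90b1, chr10:86705445-86705694, minus strand: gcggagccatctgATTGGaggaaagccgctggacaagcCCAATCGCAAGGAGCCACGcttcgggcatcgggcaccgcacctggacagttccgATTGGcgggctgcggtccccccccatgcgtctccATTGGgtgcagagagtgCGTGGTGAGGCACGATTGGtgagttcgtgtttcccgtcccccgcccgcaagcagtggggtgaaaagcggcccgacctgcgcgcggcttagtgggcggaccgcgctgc
Hspa5 held 4 CCAAT boxes, of which 1 opened a stress element 65 bases before the start site. Hsp90b1 held 5 CCAAT boxes and 2 stress elements, and each stress element includes a CCAAT box already counted. Positions count from the RefSeq start site, which for both genes lies downstream of the 5′ end of the GENCODE gene model, so part of each window, with the Hspa5 stress element, lies inside that model. The stress element was present in 0.113% of the 32851 windows and a CCAAT box in 33.8%. Of the 10 genes, 8 had a window in the RefSeq table, and the stress element was matched in Hspa5 and Hsp90b1 alone among them. The amino acid response core TGATGNAA, bound by ATF4, was searched on both strands too and was matched in none of the 8.

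Hspa5 (chromosome 2, 34771970 to 34777547, plus strand) encodes BiP, the HSP70 of the endoplasmic reticulum lumen and the main reporter of the unfolded protein response. It had 191, 156 and 165 CPM in the controls and 171, 183 and 173 CPM in overexpression. Control libraries were both its highest and its lowest, so the overexpression range lay inside the control range. The means were 171 ± 18.3 CPM and 176 ± 6.29 CPM (SD, n = 3), a fold of 1.03 with a 95% interval from 0.891 to 1.19. Hsp90b1 (chromosome 10, 86690209 to 86705509, minus strand) had 326, 306 and 310 CPM in the controls and 311, 309 and 292 CPM in overexpression. The groups overlapped, and its fold was 0.966 with a 95% interval from 0.866 to 1.08. Its within-group SD was 0.05 on the log2 scale, against 0.18 for the median gene. The pseudogene 1810014B01Rik overlaps it on the other strand at 5.34 CPM in the controls and 4.45 in overexpression, and the strand setting of the counting is not given in the sources used here. The profiles most like that of Hspa5 were those of Urod, an enzyme of haem synthesis, of Nif3l1 and of the gene model Gm12231, at a root mean square difference of 0.02, 0.02 and 0.03 on the log2 scale.

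The cytosolic and the endoplasmic reticulum chaperones were then set against each other within each library. The mean log2 CPM of the 5 cytosolic genes minus that of the 2 endoplasmic reticulum genes was -2.19, -2.39 and -1.90 in control libraries 1 to 3 and -2.32, -1.97 and -1.72 in overexpression libraries 1 to 3. The values interleaved, with means of -2.16 ± 0.25 in control and -2.0 ± 0.30 in overexpression (SD, n = 3). The endoplasmic reticulum side was flat, at 7.77 to 7.96 log2 CPM over the 6 libraries, and the cytosolic side, with all 5 genes, ran from 5.38 to 6.09. The negative sign came from the low levels of Hspa1a and Hspa1b. Without these copies the same difference was positive, at 0.34, 0.34 and 0.44 in control libraries 1 to 3. In overexpression libraries 1 to 3 it was then 0.25, 0.35 and 0.45. Expressed as fitted fold changes, the cytosolic genes averaged 0.16 and the endoplasmic reticulum genes -0.0049 on the log2 scale, a difference of 0.16. That difference turned to -0.02 without Hspa1a and Hspa1b and to -0.01 with medians in place of means. It was 0.01 without overexpression library 3 and 0.07 without control library 2, and it reached 0.31 without control library 3 and 0.30 without overexpression library 1. It was 0.09 with Hspa1a and Hspa1b summed and 0.04 with the cortical marker level as a covariate, but 0.27 with the choroid plexus marker level. Being a score over chosen genes, it was given no test.

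**Figure D3:**
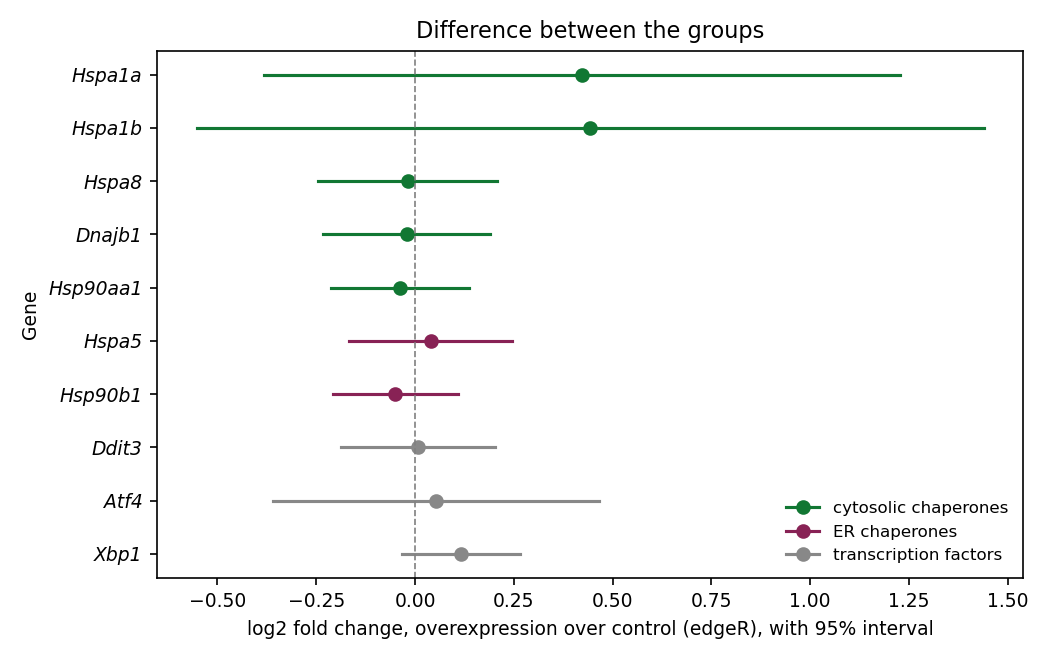
Log2 fold change of overexpression over control for each gene, with its 95% interval from edgeR's quasi-likelihood fit; colours give the class of the gene and the dashed line marks no change. All 10 intervals include 0, and those of Hspa1a and Hspa1b, at 0.42 and 0.44, are the widest.

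Among the transcription factors, Ddit3 (chromosome 10, 127290774 to 127296288, plus strand) encodes CHOP, which links lasting endoplasmic reticulum stress to apoptosis. It had 22.7, 20.8 and 20.2 CPM in the controls and 20.4, 22.3 and 21.4 CPM in overexpression. The groups overlapped almost fully, and the fold was 1.01 with a 95% interval from 0.878 to 1.15. Its exons overlap those of Mars, a tRNA synthetase gene on the other strand with 37.3 CPM in the controls and 36.5 in overexpression, so part of its count may belong there. A second identifier with the symbol Ddit3, covering a short upstream reading frame of the same transcript, was not used. The profiles closest to that of Ddit3 were those of Tmem87a, Mief1 and Slc4a1ap, at a root mean square difference of 0.02 each.

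Atf4 (chromosome 15, 80255184 to 80257541, plus strand) encodes the factor whose translation rises when PERK or a related kinase phosphorylates eIF2α, a step that transcript counts do not show. It had 68.4, 58.3 and 78.1 CPM in the controls and 54.5, 74.6 and 83.4 CPM in overexpression. As with Hspa1a and Hspa1b, control library 2 and overexpression library 1 were lowest and overexpression library 3 highest. Control library 2 and overexpression library 1 were also the lowest for Hspa8, Dnajb1 and Hsp90aa1, which were highest in other libraries. The means of Atf4 were 68.3 ± 9.87 and 70.8 ± 14.8 CPM (SD, n = 3), and the fold was 1.04 with a 95% interval from 0.779 to 1.38. Its log2 fold change was 0.05, and -0.07 with the cortical marker level as a covariate.

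Xbp1 (chromosome 11, 5520659 to 5525893, plus strand) encodes the factor that IRE1 activates by splicing its transcript, and counts per gene do not tell the spliced from the unspliced form. It had 61.1, 57.5 and 57.5 CPM in the controls and 61.6, 66.2 and 63.0 CPM in overexpression. Every overexpression library lay above every control library, which held for 1 of the 10 genes, while it held for 4.81% of all genes tested. Groups were separate with overexpression lower for 0 of the 10, against 4.11% of all genes, and in either direction for 1, against 8.93%. The fold was 1.08 with a 95% interval from 0.978 to 1.202 (unadjusted p = 0.109 in edgeR's quasi-likelihood test). In 18 other settings its log2 fold change stayed between 0.08 and 0.15. Its highest library, overexpression library 2, was also the highest for markers of choroid plexus, a secretory epithelium. All 13 choroid plexus markers were measured and none was at 0. Their summed level was 454, 331 and 323 CPM in control libraries 1 to 3. It was 925, 3490 and 318 CPM in overexpression libraries 1 to 3. Most of the sum in the controls was Enpp2, with a mean of 307 CPM there and 545 CPM in overexpression. Ttr had means of 38.9 and 915 CPM. Overexpression library 3 had the lowest sum of the 13 markers, and for Xbp1 it stood above overexpression library 1 and every control. Overexpression library 2 was highest too for 12 markers of B and plasma cells, which use XBP1 to secrete antibody. Their summed level was 31.9, 13.7 and 96.7 CPM in control libraries 1 to 3 and 93.8, 334 and 258 CPM in overexpression libraries 1 to 3. The immunoglobulin light chain gene Igkc made up 0.406, 0.341 and 49.8 CPM of this in the controls and 36.0, 197 and 148 CPM in overexpression. Iglc2, Mzb1, Tnfrsf17 and Ms4a1 were among the markers at 0 in at least 1 library. With the level of choroid plexus markers in the model, the log2 fold change of Xbp1 was 0.08, and without overexpression libraries 1 and 2 it was 0.10. Control library 3 had a higher sum of B and plasma cell markers than overexpression library 1 and a lower Xbp1 level. The part of choroid plexus in the level of Xbp1 was not tested further, and that of B and plasma cells was not tested.

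The wider pathways were read from gene lists by function. In each of the 5 chaperone and stress lists below, 0 genes passed in edgeR's quasi-likelihood test, in the DESeq2 Wald test or in limma-voom. Among 41 other cytosolic chaperones and their regulators, 25 had positive and 16 negative log2 fold changes, between -0.12 and 0.30 with a median of 0.01, and 0 had an unadjusted p under 0.05. Hspb6, a small heat shock protein of muscle and vessel walls, had 3.93 ± 0.330 CPM in the controls and 4.82 ± 0.504 in overexpression, and the HSP40 gene Dnaja2 had 153 ± 3.76 and 164 ± 3.91 CPM (SD, n = 3). The ubiquitin ligase gene Stub1, whose product tags chaperone clients for degradation, had 85.3 ± 2.26 and 91.0 ± 5.39 CPM. Hspb6 and Dnaja2 had separate groups, with overexpression higher, and Stub1 had overlapping groups. Chosen after their values were seen, the known HSF1 targets Hspb1, Hsph1 and Bag3 had mean levels of 2.31, 245 and 8.02 CPM in the controls and 2.53, 233 and 7.98 CPM in overexpression. Of these, Hsph1 had separate groups, with overexpression lower, at a log2 fold change of -0.07 (SE 0.06).

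For folding and degradation in the endoplasmic reticulum, 32 further genes were measured, 21 with positive and 11 with negative log2 fold changes, a median of 0.02 and a range from -0.13 to 0.35. At an unadjusted p under 0.05 there were 2 in edgeR, both higher in overexpression, against 1 in the DESeq2 Wald test and 0 in limma-voom. In edgeR, 3.89% of all genes had such a p, in either direction. Creld2, a stress-induced secreted protein, had 9.04, 8.17 and 7.60 CPM in the controls and 9.35, 12.5 and 9.88 CPM in overexpression. Herpud1, which takes part in degradation of misfolded proteins, had 32.6, 30.3 and 31.3 CPM in the controls and 33.3, 35.4 and 40.8 CPM in overexpression. For both, every overexpression library lay above every control library, with log2 fold changes of 0.35 (SE 0.14) and 0.22 (SE 0.09) and adjusted p = 1.0 in edgeR. Pdia4, a disulphide isomerase, had 31.7, 30.3 and 26.6 CPM in the controls and 35.7, 36.2 and 29.7 CPM in overexpression, with overlapping groups. Creld2 and Pdia4 were both highest in overexpression library 2, the library richest in choroid plexus and in B and plasma cell markers. Herpud1 was highest in overexpression library 3, the library lowest in choroid plexus markers. The part of choroid plexus, B and plasma cells in these levels was not tested.

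Of 31 targets of ATF4 and CHOP, 29 were abundant enough to test, 20 with positive and 9 with negative log2 fold changes and a median of 0.04. That median was -0.03 without overexpression library 3 and 0.09 without overexpression library 1. Nupr1, a stress-induced nuclear protein, was the 1 gene with an unadjusted p under 0.05 in edgeR (0.0399), at 4.10 ± 0.871 CPM in the controls and 5.67 ± 0.309 in overexpression (SD, n = 3). The death receptor gene Tnfrsf10b had 0.696 ± 0.159 and 1.09 ± 0.0988 CPM, and the cystine transporter gene Slc7a11 had 44.5 ± 5.17 and 36.6 ± 6.65 CPM. Nupr1 and Tnfrsf10b had separate groups, with overexpression higher, and Slc7a11 had overlapping groups. Of further known reporters of this branch, chosen after their values were seen, Trib3 and Asns had log2 fold changes of -0.17 and 0.07. Atf3, Chac1, Sesn2 and Ppp1r15a had 0.43, 0.25, 0.19 and 0.14, and of these 6 genes Atf3 alone had separate groups. The level of Atf3 was low, at a mean of 0.690 CPM in the controls and 0.929 in overexpression. Its log2 fold change had an SE of 0.26 (unadjusted p = 0.137 in edgeR's quasi-likelihood test).

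Among 19 sensors and regulators, 15 had positive and 4 negative log2 fold changes, where 50.6% of all genes tested were positive, with a median of 0.04 and no unadjusted p under 0.05. The median was -0.01 without overexpression library 3 and 0.08 without overexpression library 1. The genes with the smallest p were Creb3l1, a transcription factor of the ATF6 kind, at 1.44 ± 0.237 CPM in the controls and 1.89 ± 0.295 in overexpression, and Eif2ak2, which encodes the interferon-induced eIF2α kinase PKR, at 8.80 ± 1.63 and 10.7 ± 2.05 CPM (SD, n = 3). Creb3l2, of the same kind as Creb3l1, had 16.9 ± 1.79 and 18.3 ± 0.615 CPM. Creb3l1 had separate groups, with overexpression higher, and Eif2ak2 and Creb3l2 had overlapping groups. The 10 mitochondrial chaperone and protease genes had a median of -0.01, with 5 positive and 5 negative. The chaperonin genes Hspd1 and Hspe1, which share a promoter region, had 136 ± 1.35 and 45.1 ± 1.66 CPM in the controls. In overexpression they had 128 ± 5.51 and 41.8 ± 2.73 CPM, and both had separate groups, with overexpression lower. The protease subunit gene Clpx had 34.2 ± 1.96 and 32 ± 2.60 CPM, with overlapping groups.

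Lists outside protein folding set a scale for these values. The 18 interferon response genes all had positive log2 fold changes, with a median of 1.18 and 16 at an unadjusted p under 0.05, although 0 passed in edgeR and 8 passed in the DESeq2 Wald test. The smallest adjusted p of that list in edgeR was 0.352, for the GTPase gene Gbp2, whose mean was 3.36 ± 0.435 CPM against 9.59 ± 2.39 CPM with overexpression (SD, n = 3). Xaf1 had 7.85 ± 0.602 and 12 ± 1.48 CPM, and Oas1a 0.408 ± 0.241 and 2.16 ± 0.953 CPM. Of 12 markers of T and NK cells, given beside these values, 8 were abundant enough to test. All 8 had positive log2 fold changes with a median of 1.56, and 5 had an unadjusted p under 0.05 in edgeR. The filter on low counts keeps a gene abundant in 1 group alone, so these directions and p are partly set by it. Among those 5, Cd3e, Cd3g, Cd8b1 and Cxcr6 had means of 0.0898, 0.121, 0.170 and 0.171 CPM in the controls. Their means in overexpression were 0.718, 0.586, 0.422 and 0.967 CPM. The summed level of the 12 markers was 47.6 to 79.5 CPM in the controls and 58.2 to 89.0 CPM in overexpression. Most of that sum was Cd4, at 56.7, 77.4 and 40.0 CPM in control libraries 1 to 3. Cd4 had 80.2, 72.4 and 41.3 CPM in overexpression libraries 1 to 3, a log2 fold change of 0.15 (SE 0.33). Of the 12, 6 were at 0 in at least 1 library, among them Nkg7, Gzmb and Klrk1, and the part of these cells in the interferon response values was not tested. The medians of the 4 lists of nuclear and cytosolic or reticular stress genes lay between 0.01 and 0.04. The 15 immediate early genes also had positive fold changes throughout, with a median of 0.40, and 0 had an unadjusted p under 0.05 in edgeR and limma-voom and 1 in the DESeq2 Wald test. That median was 0.08 without overexpression library 2 and 0.74 without overexpression library 1. Egr1 had 137 ± 8.21 CPM in the controls and 175 ± 39.2 in overexpression, and Npas4 7.21 ± 1.46 and 15.7 ± 10.9 CPM (SD, n = 3). Fos had 5.06, 1.93 and 5.39 CPM in the controls and 2.91, 19.1 and 9.29 CPM in overexpression. Of the 2 cold-inducible RNA-binding protein genes, which respond to temperature in the opposite sense to heat shock genes, Rbm3 had 88.8 ± 5.89 CPM in the controls and 104 ± 8.38 in overexpression, with separate groups (unadjusted p = 0.0251, adjusted p = 1.0 in edgeR). Cirbp had 72.4 ± 7.58 and 75.3 ± 1.59 CPM, with overlapping groups.

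**Figure D4:**
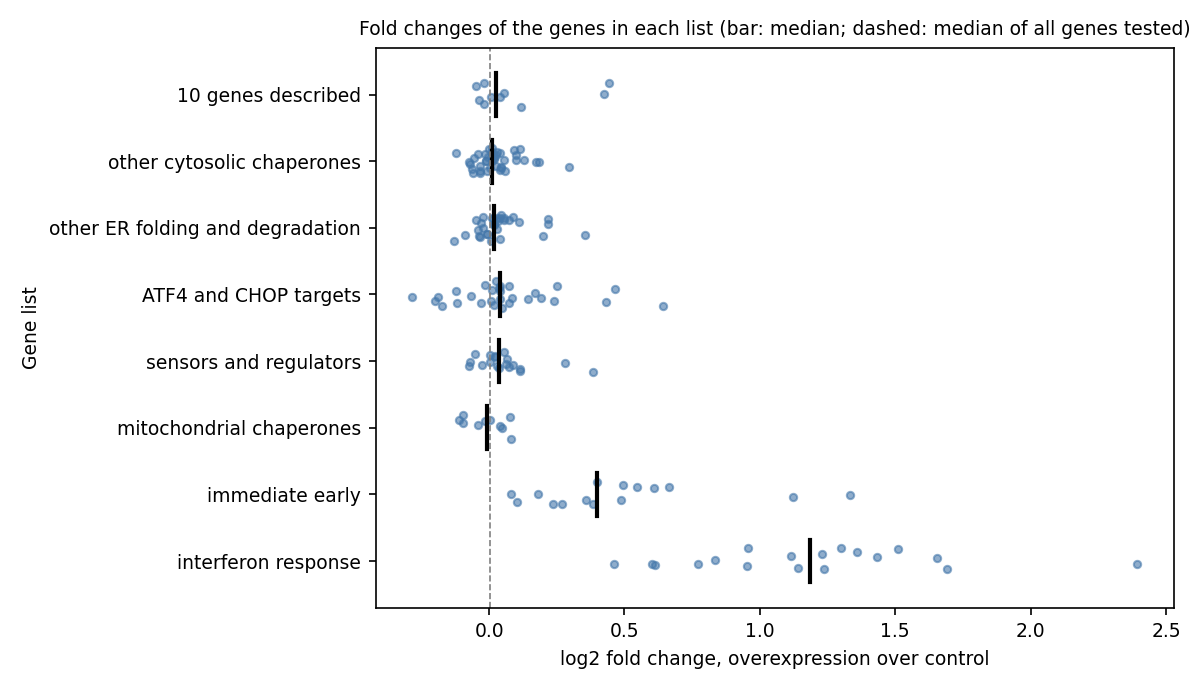
Log2 fold changes of overexpression over control for the genes of each list, with 1 point per gene tested, a black bar at the list's median and a dashed line at the median of all genes tested. The protein folding lists centre near 0, with medians from -0.01 to 0.04, while immediate early genes centre at 0.40 and interferon response genes at 1.18.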

How the data were processed

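RNA-seq counts of 6 mouse striatum libraries were used, 3 control and 3 overexpression, grouped by title. Trizol extraction preceded strand-specific TruSeq library construction, per the labels' protocols. The deposited values were raw counts, whole numbers by Ensembl identifier, with 1 file a sample. The submitters' processing notes name build mm10 and the tools STAR 2.5.3a, DESeq 1.16.1, FastQC 0.11.5 and Cuffnorm, without their roles. How reads were counted, with which strand setting and on which annotation, was not stated in the sources read. Symbols, coordinates and exon lengths came from GENCODE M21, which matched 55154 of 55335 identifiers. Promoter windows came from RefSeq on GRCm38.p6.

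Groups were compared with edgeR 4.0.16 in R 4.3.3 (TMM factors, filterByExpr, robust quasi-likelihood F-test, two-sided, Benjamini-Hochberg over 19809 genes, threshold 0.05). The SE of a log2 fold change is its size over the root of F, and 95% intervals use the t quantile of the fit. CPM use TMM-scaled library sizes, and log2 CPM a prior count of 2. The fit was tested on simulated data. DESeq2 1.42.0, limma-voom (limma 3.58.1), other normalizations, filters, covariates and each library left out in turn were alternatives. No library was a copy of another: chi-square over its degrees of freedom was 19.1 to 49.6 between replicates.

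The genes and lists were chosen with earlier results of these data known. Named are the 10 genes, Pde5a, the 3 genes with the smallest p in each pathway list and any that passed, the most abundant marker of a cell type list, and the 3 profiles most like Hspa1a, Hspa5 and Ddit3. Other names are said to be chosen after their values were seen, or stand for a marker list.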

Additional observations from a re-analysis of the deposited data

How the results depend on the processing

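None of the 10 genes passed, or had an unadjusted p under 0.05, in any of the 19 alternatives run. Over all genes, 1 gene passed, against 3 at an adjusted p of 0.1, 86 in the DESeq2 Wald test, 6 in limma-voom, 3 with no filter on low counts, 5 without overexpression replicates 1 and 2 together, 6 with the cortical marker level as a covariate, and 1 to 2 when 1 library was left out. With the replicate block 3 passed. The labels give no pairing beyond a shared number. Deviations of same-numbered libraries from their group means correlated at -0.02, 0.03 and 0.29, and control replicate 2 correlated best with overexpression replicate 1, at 0.35. With 3 libraries a group, these values cannot settle whether same-numbered libraries shared a batch. The difference between cytosolic and endoplasmic reticulum chaperones was 0.42 without overexpression replicates 1 and 2 together, where the 1 overexpression library left is assumed to vary like the controls, and 0.0067 to 0.311 with 1 library left out. The cause was not tested. Of 179 log2 fold changes of single genes over these settings, 18 changed sign. With 1 library left out, the range was 0.174 to 0.668 for Hspa1a, 0.0771 to 0.829 for Hspa1b, -0.103 to 0.0482 for Hspa8, -0.0714 to 0.0630 for Dnajb1, -0.0710 to 0.0027 for Hsp90aa1, -0.0205 to 0.134 for Hspa5, -0.0234 to 0.0628 for Ddit3 and -0.0849 to 0.210 for Atf4. Without overexpression replicates 1 and 2 together, Hspa8 was at 0.0397 and Dnajb1 at 0.0480. The choroid plexus covariate gave -0.0033 for Hspa5 and -0.0230 for Ddit3, and the cortical covariate gave -0.0680 for Atf4. Depth was lowest for Hspa1a and Hspa1b, at 86 to 277 counts a library.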
